A study of Homo sapiens with 9 samples.

Results

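The genes described here are 53 androgen-induced genes of prostate cancer cells other than the kallikreins and the lipid synthesis genes. They were chosen by name from what is known of androgen response, but with earlier results of these data known. The list as a whole was therefore given no test, and its shares are description. The rule kept those with 10 or more counts in at least 3 of the 9 libraries. All 53 named symbols met it, out of 60325 gene rows, and all 53 were among the 16796 genes that passed the filter on low counts and were tested. The scarcest were HERC3, with 12 to 47 counts per library, and ALDH1A3, with 26 to 104.

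The libraries are total RNA from LAPC4, an established human prostate cancer line that responds to androgen, all taken at day 30. A group of 3 rescue libraries came from cells overexpressing UGT2B28 on the background of a UGT2B28 knockdown, selected with 1 mg/mL G418. A group of 3 libraries is labelled UGT2B28 knockdown (titled KD4), selected with 3 ug/mL puromycin, and 3 control libraries are titled NT, with no drug given. UGT2B28 encodes an enzyme that attaches glucuronic acid to androgens and other steroids. Whether the rescue cells also stayed under puromycin, how many clones each line holds and whether replicates were separate cultures is not said in the labels, so a p-value here reflects library-to-library spread alone, and that spread may be technical. An effect of a selection drug cannot be told apart from that of the construct it selects. No androgen treatment or withdrawal is among the groups, so the androgen response of the genes themselves was not measured.

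Library totals ran between 8132206 and 14185252 counts. UGT2B28 itself stood at 75.1, 92.9 and 53.6 counts per 1000000 (CPM, scaled by the trimmed mean of M-values, TMM) in rescue, at 8.48, 6.18 and 3.05 in knockdown-labelled and at 5.12, 5.10 and 7.80 in control libraries, so the mRNA counts do not bear out the knockdown label (log2 fold change against control -0.04, edgeR adjusted p = 0.957) and the group is called knockdown-labelled throughout. Knockdown-labelled library 3 stood apart from libraries 1 and 2, with mitochondrial transcripts at 10.2% of counts, against 15.1% and 15.8% in those 2 libraries, 5.79% to 7.90% in rescue and 7.62% to 8.57% in control libraries. Results are therefore also given without that library, and with it as the only one of its group. In that second fit the spread comes from the rescue and control libraries only, and the lone library is assumed to vary as they do. Luminal prostate markers were present in all 9 libraries, with summed levels of 2999 to 3429 CPM in rescue, 2622 to 4124 in knockdown-labelled and 2959 to 3374 in control libraries. The 3 basal markers summed to 1.05 to 1.99 CPM in rescue, 0.942 to 3.71 in knockdown-labelled and 1.02 to 1.95 in control libraries, with TP63 at 0 to 0.199 CPM. The immune marker PTPRC was at 0 in all 9 libraries, while CD68 stood at 4.61 to 5.96 CPM in rescue, 2.94 to 10.4 in knockdown-labelled and 4.90 to 8.04 in control libraries. The 4 neuroendocrine markers summed to 25.2 to 37.6 CPM in rescue, 16.9 to 19.1 in knockdown-labelled and 16.5 to 35.6 in control libraries, and the 5 stromal markers to 27.1, 46.9 and 109 CPM in rescue, 33.2, 33.5 and 35.8 in knockdown-labelled and 21.5, 18.2 and 66.3 in control libraries. Fewer cells of a type and less RNA per cell cannot be told apart in such bulk libraries.

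Testosterone and dihydrotestosterone act through a steroid receptor that heat shock chaperones hold in the cytoplasm until the hormone binds. The receptor then enters the nucleus, binds DNA as a dimer at inverted repeats of a short hexamer, mostly in distal enhancers, and recruits coactivators that raise transcription of its targets. In luminal prostate cells these targets serve far more than the secretion of kallikrein proteases: they include feedback regulators of the receptor, kinases and receptors, parts of the secretory pathway, transporters and enzymes of sugar, polyamine and prostaglandin metabolism. Several of them, FKBP5, SGK1 and ZBTB16 among them, also answer to the glucocorticoid receptor, which binds the same hexamer.

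Promoters are shown for the genes that rose in rescue over knockdown-labelled libraries and have an entry in the RefSeq table, FKBP5, RAB3B, ABHD2 and MERTK, since these carry the main result below. Each window runs from 250 bases before to 50 bases after a transcription start on GRCh38.p14 and is printed from 5′ to 3′ on the strand of the gene, with the receptor hexamer AGAACA, or its reverse complement TGTTCT, in capitals where it occurs. ABHD2 and FKBP5 each have a pair of starts.
FKBP5, chr6:35688866-35689165, minus strand: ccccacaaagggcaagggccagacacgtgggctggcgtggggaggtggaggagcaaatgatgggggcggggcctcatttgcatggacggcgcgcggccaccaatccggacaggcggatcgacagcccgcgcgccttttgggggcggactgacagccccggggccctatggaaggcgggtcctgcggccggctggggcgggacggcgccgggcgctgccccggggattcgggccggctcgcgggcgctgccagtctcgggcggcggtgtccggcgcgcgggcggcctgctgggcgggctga
FKBP5, chr6:35728534-35728833, minus strand: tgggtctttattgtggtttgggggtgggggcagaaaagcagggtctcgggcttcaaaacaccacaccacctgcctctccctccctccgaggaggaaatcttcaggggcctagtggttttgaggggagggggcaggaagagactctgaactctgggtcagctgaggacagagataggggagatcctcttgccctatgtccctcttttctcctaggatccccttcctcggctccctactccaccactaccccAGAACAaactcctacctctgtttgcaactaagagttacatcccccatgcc
RAB3B, chr1:51990651-51990950, minus strand: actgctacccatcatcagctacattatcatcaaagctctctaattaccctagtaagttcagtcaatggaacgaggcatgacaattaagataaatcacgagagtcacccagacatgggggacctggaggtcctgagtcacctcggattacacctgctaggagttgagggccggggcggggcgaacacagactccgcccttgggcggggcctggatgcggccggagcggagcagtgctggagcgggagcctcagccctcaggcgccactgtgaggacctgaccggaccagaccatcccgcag
ABHD2, chr15:89040748-89041047, plus strand: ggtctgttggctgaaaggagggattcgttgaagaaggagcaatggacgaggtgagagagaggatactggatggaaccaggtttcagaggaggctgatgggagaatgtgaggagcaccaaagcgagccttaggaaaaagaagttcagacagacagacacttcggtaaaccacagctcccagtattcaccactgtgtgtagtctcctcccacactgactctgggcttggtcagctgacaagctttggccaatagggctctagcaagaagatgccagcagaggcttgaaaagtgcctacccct
ABHD2, chr15:89088206-89088505, plus strand: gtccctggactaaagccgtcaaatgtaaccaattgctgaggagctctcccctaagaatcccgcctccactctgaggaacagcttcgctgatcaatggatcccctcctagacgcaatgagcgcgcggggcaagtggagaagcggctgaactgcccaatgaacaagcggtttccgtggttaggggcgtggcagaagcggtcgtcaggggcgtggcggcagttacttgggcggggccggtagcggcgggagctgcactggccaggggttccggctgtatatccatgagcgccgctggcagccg
MERTK, chr2:111898357-111898656, plus strand: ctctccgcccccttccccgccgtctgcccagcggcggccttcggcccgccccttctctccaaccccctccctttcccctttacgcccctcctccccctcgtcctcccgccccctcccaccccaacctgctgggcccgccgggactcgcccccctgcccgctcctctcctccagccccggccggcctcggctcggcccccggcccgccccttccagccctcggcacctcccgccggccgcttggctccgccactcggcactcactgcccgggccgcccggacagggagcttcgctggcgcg
The hexamer was found once in these 6 windows, in the FKBP5 window at chr6:35728534-35728833, where it covers bases 251 to 256 of the window, beginning at the start. Of the 53 genes, 45 matched the table, with 83 windows, and 9 of these (10.8%) held the hexamer on either strand, against 14.8% of all 35116 windows. The 8 genes concerned were ACTN1, FKBP5, IQGAP2, LIFR, PMEPA1, SGK1, STK39 and TSC22D1, or 17.8% of those matched, against 17.5% of all 27305 genes. The inverted repeat, AGAACA followed after 3 bases of any kind by TGTTCT, contains the hexamer on both strands and was in 0 windows of these genes and in 1 window overall. A match is a description of letters and not a site of binding, and a window without one says nothing of the receptor. ADAMTS1, ELL2, NDRG1, NNMT, PLPP1, SORD, TPD52 and ZBTB10 were not matched.

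In the control libraries the 53 genes spanned a wide range of levels. Per kilobase of exon the median was 8.15 CPM per kb. The highest was SPDEF, an ETS transcription factor of luminal cells, at 152.6 CPM per kb, followed by MYL12A, a regulatory light chain of non-muscle myosin, at 92.9 CPM per kb. UAP1, which makes the sugar nucleotide UDP-GlcNAc, stood at 59.0 CPM per kb, and DBI, the acyl-CoA binding protein, at 58.8. The lowest levels were those of the ubiquitin ligase gene HERC3, at 0.406 CPM per kb, of ALDH1A3, an enzyme of retinoic acid synthesis, at 0.676 and of the transcription factor gene MAF at 1.01.

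The genes varied most among the knockdown-labelled libraries. The median ratio of the highest to the lowest library within a group was 1.18 in rescue, 1.47 in knockdown-labelled and 1.21 in control libraries. The widest spread was that of HPGD, which inactivates prostaglandins, at 3.69 in the knockdown-labelled group: it had 42.5 and 36.5 CPM in libraries 1 and 2 and 11.5 CPM in library 3. AZGP1, a glycoprotein secreted into seminal fluid, had 209 and 195 CPM in knockdown-labelled libraries 1 and 2 and 56.8 CPM in library 3. Knockdown-labelled libraries 1 and 2 lay above the other 7 libraries for 16 of the 53 genes (30.2%), against 20.4% of all genes tested, and below them for 7 (13.2%), against 17.3%. Library 3 of that group was the lowest of all 9 for 16 genes (30.2%), against 21.7% of all genes tested, and the highest for 3 (5.66%), ELK4, GUCY1A1 and PGM3, against 20.4%. These 3 genes, an ETS factor, a subunit of the nitric oxide receptor and an enzyme of UDP-GlcNAc synthesis, were named after their values were seen.

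**Figure D1:**
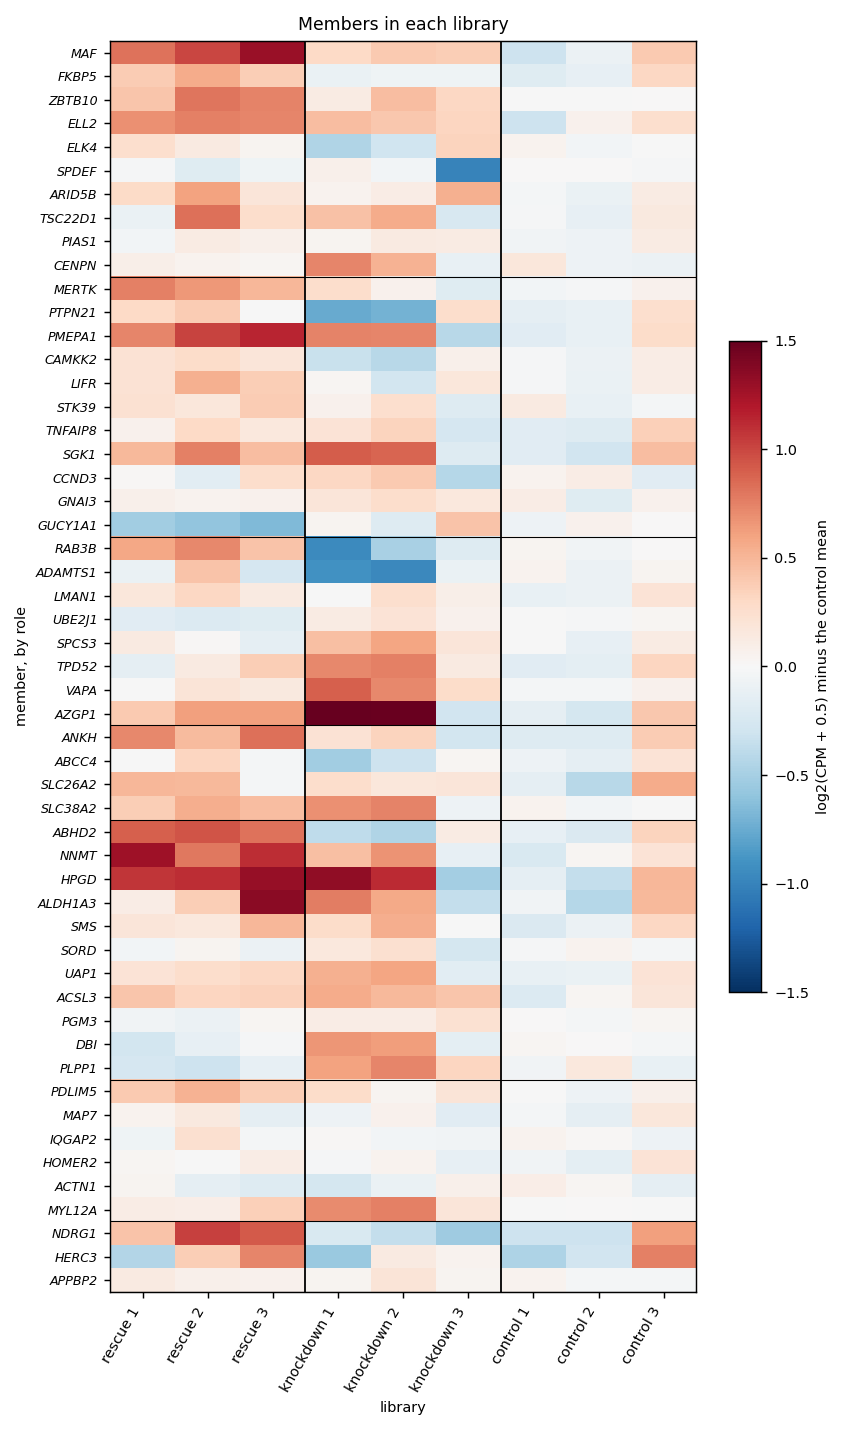
The 53 genes (rows, by role) in each of the 9 libraries (columns), as log2(CPM + 0.5) minus the mean of the 3 control libraries, with red above and blue below the control mean and colours saturating at 1.5 in either direction. Knockdown-labelled library 3 differs from libraries 1 and 2 in many rows, AZGP1 and HPGD among them, while the rescue libraries resemble each other more.

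Rescue and knockdown-labelled cells differ by design in the UGT2B28 construct added back. Among the 53 genes, 5 rose in the rescue libraries and 3 fell. Those that rose were RAB3B, a small GTPase of regulated secretion, the serine hydrolase gene ABHD2, the stress-responsive gene NDRG1, the receptor co-chaperone FKBP5 and the receptor tyrosine kinase MERTK, by 1.43-fold to 2.27-fold. Those that fell were the lipid phosphatase PLPP1, the nitric oxide receptor subunit GUCY1A1 and VAPA, a tether of endoplasmic reticulum membranes, to between 0.573 and 0.684 of the knockdown-labelled level. The 8 genes are 15.1% of the 53, against 9.83% of all genes tested (4.44% higher and 5.39% lower). To pass, a gene needed an adjusted p under 0.05 in the quasi-likelihood test of edgeR, with Benjamini-Hochberg adjustment over the 16796 genes tested. The log2 fold change was positive for 31 of the 53, with a median of 0.09, against -0.00 over all genes tested. All 3 rescue libraries lay above the 3 knockdown-labelled ones for 12 of the 53 genes, against 14.6% of all genes tested, and below them for 8, against 14% of all genes tested.

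**Figure D2:**
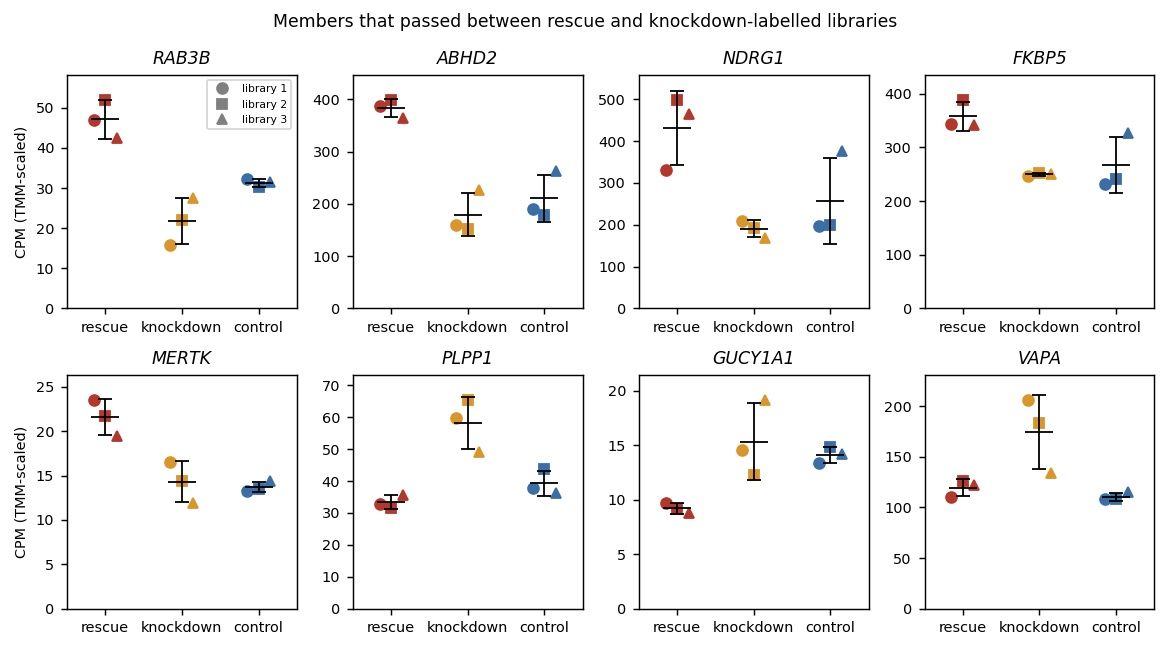
Levels in CPM (linear axes from 0) of the 8 genes that passed between rescue and knockdown-labelled libraries, with a symbol for each library and the mean and SD of the 3 libraries of a group in black. For RAB3B, ABHD2, FKBP5 and MERTK the 3 rescue libraries lie above all 6 others, and for PLPP1 and GUCY1A1 below them, while VAPA is high in the knockdown-labelled libraries only and NDRG1 is also high in control library 3.

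Of the 10 genes grouped under receptor cofactors and transcription, which include the centromere protein gene CENPN, FKBP5 alone passed. FKBP5 is an immunophilin that sits with Hsp90 on unliganded steroid receptors. It had 344, 389 and 341 CPM in rescue, 246, 252 and 251 CPM in knockdown-labelled and 233, 242 and 327 CPM in control libraries. The rescue libraries were above all 6 others, with control library 3 nearest to them. FKBP5 averaged 358 ± 26.9 CPM in rescue and 250 ± 3.04 CPM in knockdown-labelled libraries (SD, n = 3 each), a log2 fold change of 0.52 (SE 0.146, edgeR adjusted p = 0.0486). The call lies near the threshold, and of the 9 fits that left out a library it was kept in those without control library 3 or knockdown-labelled library 3. MAF, a basic leucine zipper factor, had 12.5, 14.3 and 17.7 CPM in rescue, 8.61, 9.18 and 9.03 CPM in knockdown-labelled and 5.47, 6.43 and 9.23 CPM in control libraries. Its rescue libraries were also above all others, but the log2 fold change of 0.72 did not pass (adjusted p = 0.065), and neither did that of the zinc finger gene ZBTB10 at 0.36 (adjusted p = 0.138).

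Among 11 receptors and signalling genes, MERTK rose and GUCY1A1 fell. MERTK, a receptor for the ligands GAS6 and protein S, had 23.5, 21.7 and 19.5 CPM in rescue, 16.6, 14.4 and 11.97 CPM in knockdown-labelled and 13.3, 13.5 and 14.4 CPM in control libraries. Its rescue libraries stood above the rest, at 21.6 ± 2.03 CPM against 14.3 ± 2.29 CPM in knockdown-labelled libraries (SD, n = 3 each), a log2 fold change of 0.60 (SE 0.160, edgeR adjusted p = 0.0419). GUCY1A1, the alpha subunit of soluble guanylate cyclase, had 9.69, 9.18 and 8.74 CPM in rescue, 14.5, 12.3 and 19.1 CPM in knockdown-labelled and 13.4, 14.8 and 14.2 CPM in control libraries. The rescue libraries were below all others, at 9.20 ± 0.472 CPM against 15.3 ± 3.51 CPM in knockdown-labelled libraries (SD, n = 3 each; log2 fold change -0.73, SE 0.188, edgeR adjusted p = 0.0371). Either call was kept in only 1 of the 9 fits that left out a library, the one without knockdown-labelled library 3, and both changes kept their sign in all of them. CAMKK2, the kinase upstream of AMPK, had 103, 106 and 99.7 CPM in rescue, 69.6, 66.0 and 92.8 CPM in knockdown-labelled and 86.8, 82.8 and 94.9 CPM in control libraries. The rescue libraries stood above the other 6, but with knockdown-labelled library 3 close to the controls the log2 fold change of 0.43 did not pass (adjusted p = 0.0709).

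Among 8 genes of the secretory pathway and vesicle traffic, RAB3B rose and VAPA fell. RAB3B had 46.9, 52.0 and 42.4 CPM in rescue, 15.9, 22.2 and 27.4 CPM in knockdown-labelled and 32.3, 30.3 and 31.5 CPM in control libraries. The 3 groups did not overlap: rescue was highest and knockdown-labelled lowest, and RAB3B was the only one of the 53 genes that lay lower in all 3 knockdown-labelled libraries than in the other 6. The means were 47.1 ± 4.81 CPM in rescue and 21.8 ± 5.78 CPM in knockdown-labelled libraries (SD, n = 3 each), a log2 fold change of 1.11 (SE 0.179, edgeR adjusted p = 0.00909). RAB3B passed in all 9 fits that left out a library, with 1.29 on the log2 scale without knockdown-labelled library 3 and 0.81 with that library alone. VAPA had 110, 126 and 122 CPM in rescue, 206, 183 and 134 CPM in knockdown-labelled and 108, 108 and 115 CPM in control libraries. Its rescue libraries were below all 3 knockdown-labelled ones and close to the controls, with a log2 fold change of -0.55 (SE 0.153, edgeR adjusted p = 0.0471). With knockdown-labelled library 3 alone it was -0.15 (adjusted p = 0.419), so the call for VAPA rests on libraries 1 and 2. Of the 9 fits that left out a library, VAPA passed only in the one without knockdown-labelled library 3. UBE2J1, an enzyme of protein quality control in the endoplasmic reticulum, had 137, 133 and 136 CPM in rescue, 167, 177 and 161 CPM in knockdown-labelled and 153, 151 and 157 CPM in control libraries. These groups did not overlap either, yet the log2 fold change of -0.32 did not pass (adjusted p = 0.072).

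Of the 4 transporters none passed. ANKH, which exports pyrophosphate and ATP, had 118, 99.3 and 127 CPM in rescue, 82.9, 90.5 and 59.1 CPM in knockdown-labelled and 62.5, 62.5 and 93.2 CPM in control libraries. The rescue libraries were above the rest, at a log2 fold change of 0.57 over knockdown-labelled libraries (adjusted p = 0.093). ABCC4, an exporter of organic anions and cyclic nucleotides, stood at 0.35 (adjusted p = 0.192) and the sulfate transporter SLC26A2 at 0.15 (adjusted p = 0.765).

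Among 11 metabolic enzymes, ABHD2 rose and PLPP1 fell. ABHD2 had 387, 400 and 365 CPM in rescue, 159, 152 and 226 CPM in knockdown-labelled and 191, 179 and 263 CPM in control libraries. Every rescue library was well above the other 6, and library 3 was the highest of its group among both the knockdown-labelled and the control libraries. The means were 384 ± 17.7 CPM in rescue and 179 ± 41.0 CPM in knockdown-labelled libraries (SD, n = 3 each), a log2 fold change of 1.10 (SE 0.188, edgeR adjusted p = 0.0105), which was 1.30 without knockdown-labelled library 3 and 0.78 with it alone. ABHD2 narrowly missed the threshold without knockdown-labelled library 2 (adjusted p = 0.0538) and without rescue library 1 (adjusted p = 0.0523). PLPP1 had 32.9, 31.4 and 35.8 CPM in rescue, 59.8, 65.4 and 49.2 CPM in knockdown-labelled and 37.9, 43.7 and 36.2 CPM in control libraries. The groups did not overlap, with knockdown-labelled libraries highest and rescue libraries lowest, and the log2 fold change of rescue over knockdown-labelled libraries was -0.80 (SE 0.137, edgeR adjusted p = 0.0105). PLPP1 missed the threshold without knockdown-labelled library 2 (adjusted p = 0.0523), rescue library 1 (0.0574) or rescue library 2 (0.0538). PLPP1 shares 481 exon bases, 23.9% of its exon length, with MTREX on the opposite strand. MTREX, a helicase of the nuclear RNA exosome, also fell in rescue, by 0.67 on the log2 scale (edgeR adjusted p = 0.0155). Reads of the shared bases cannot be assigned to either gene without strand, and the use of strand is not given. ABHD2 shares 678 exon bases, 6.55% of its exon length, with a processed pseudogene on the opposite strand. Over the 9 libraries that pseudogene had 6166 counts and ABHD2 had 25055. NNMT, which methylates nicotinamide, had 28.5, 20.3 and 25.3 CPM in rescue, 15.9, 18.6 and 10.6 CPM in knockdown-labelled and 9.78, 11.7 and 13.3 CPM in control libraries. The rescue libraries lay above all others, at a log2 fold change of 0.72 over knockdown-labelled libraries (adjusted p = 0.0648).

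Of the 6 cytoskeleton and scaffold genes none passed, with PDLIM5, a PDZ and LIM domain protein, at 0.26 (adjusted p = 0.171), MAP7, a microtubule-binding protein, at 0.09 (adjusted p = 0.695) and MYL12A at -0.38 (adjusted p = 0.153). In the group of protein turnover and stress, NDRG1 alone of 3 rose. NDRG1 had 332, 499 and 465 CPM in rescue, 210, 192 and 169 CPM in knockdown-labelled and 198, 198 and 376 CPM in control libraries. The rescue libraries were above the knockdown-labelled ones, but control library 3 fell among them. The means were 432 ± 88.6 CPM in rescue and 190 ± 20.4 CPM in knockdown-labelled libraries (SD, n = 3 each), a log2 fold change of 1.18 (SE 0.253, edgeR adjusted p = 0.0207), and the call was lost in the 5 fits that left out knockdown-labelled library 1 or 2 or any 1 of the rescue libraries. NDRG1 is also induced by hypoxia. The 10 hypoxia genes listed summed to 1491, 2202 and 2084 CPM in rescue, 1755, 1814 and 912 CPM in knockdown-labelled and 1173, 1145 and 1977 CPM in control libraries. All 10 had a positive log2 fold change of rescue over knockdown-labelled libraries, with a median of 0.24, against -0.002 over all genes tested. Of these hypoxia genes 0 passed in edgeR, where 9.83% of all genes did, in DESeq2 (16.1%) or in limma-voom (10.2%). In limma-voom with quality weights 1 hypoxia gene passed, against 41.7% of all genes. An unadjusted p under 0.05 in edgeR was reached by 2 hypoxia genes, against 28.3% of all genes. Their part in the NDRG1 result was not tested.

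**Figure D3:**
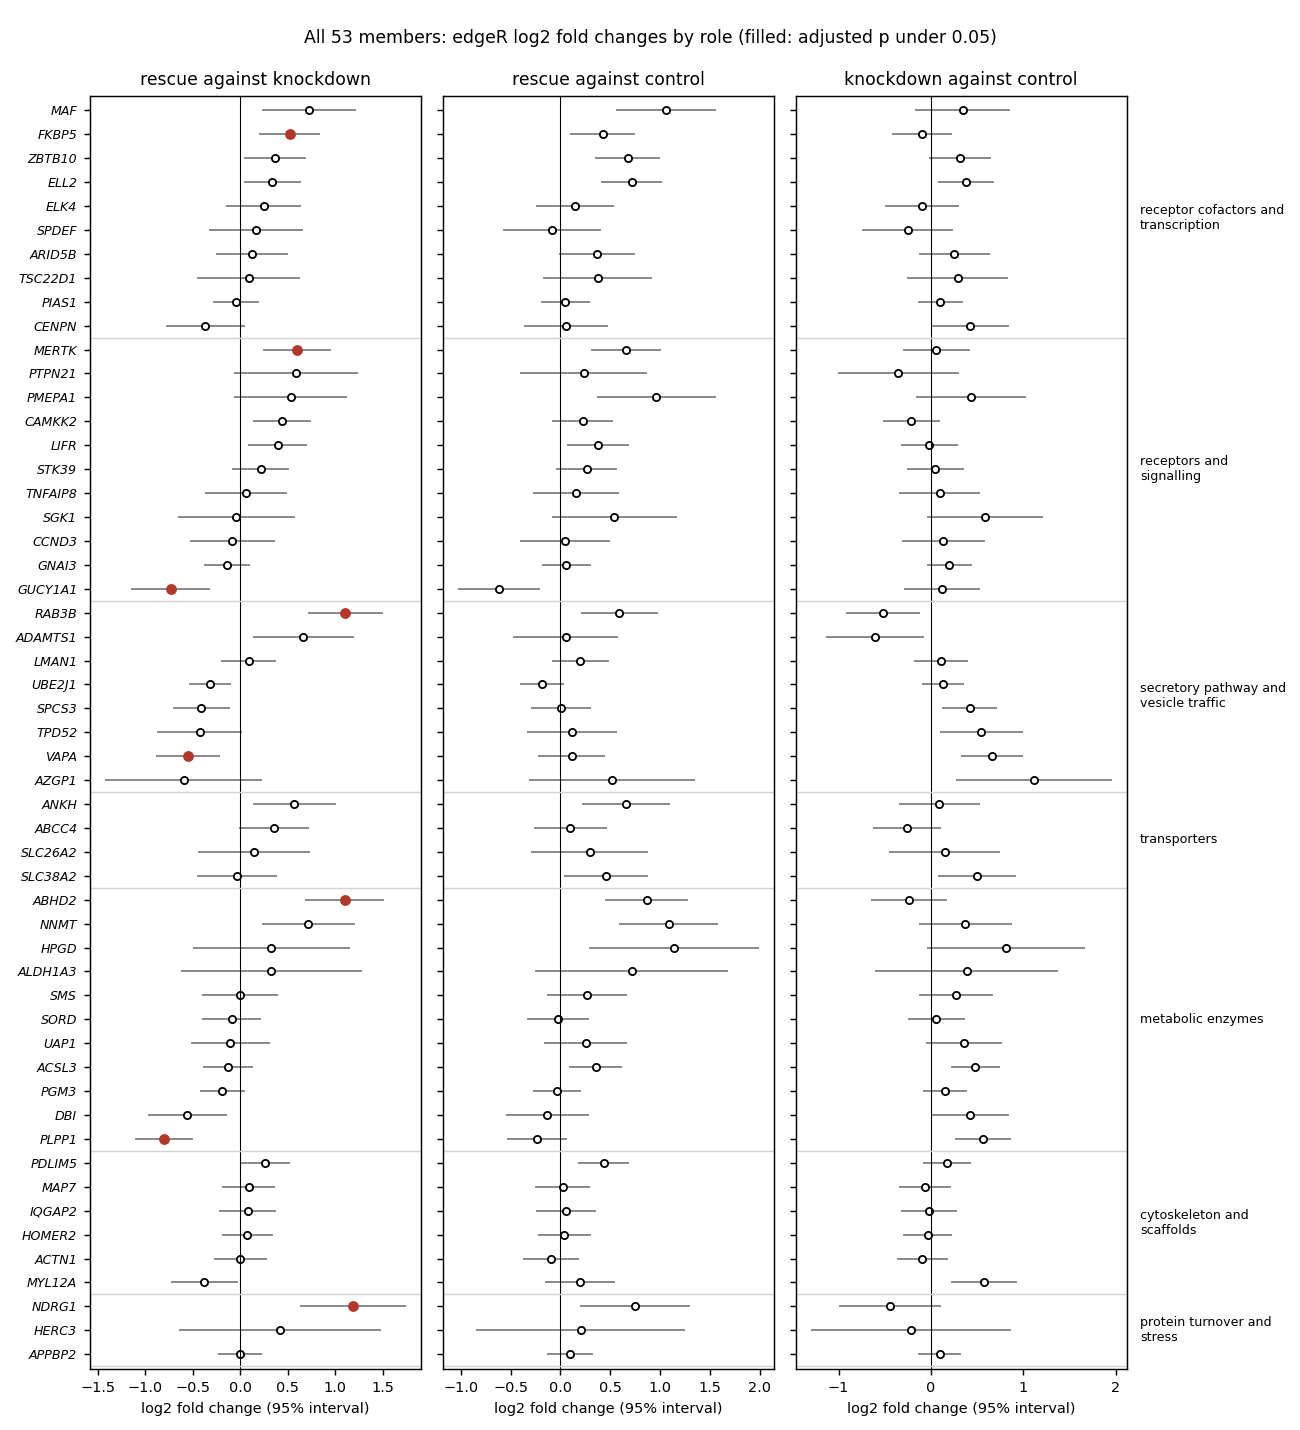
Fitted log2 fold changes with 95% confidence intervals of all 53 genes, grouped by role, for rescue against knockdown-labelled, rescue against control and knockdown-labelled against control libraries; filled points had an adjusted p under 0.05. Only the first panel has filled points, 5 to the right of 0 and 3 to the left.

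How many of the 53 genes passed between rescue and knockdown-labelled libraries followed the knockdown-labelled libraries in the fit. Without knockdown-labelled library 3, 14 of the 53 were higher in rescue, where 18.6% of all genes were, and 13 were lower, against 20.4% of all genes. With that library as the only one of its group 15 were higher, against 12.7% of all genes, and 2 were lower, against 6.84%. RAB3B, ABHD2, NDRG1, FKBP5, MERTK, PLPP1 and GUCY1A1, and also ANKH and NNMT, which had not passed with all 9 libraries, passed with the same sign in both of these fits. AZGP1 did not: it was lower in rescue by 1.00 on the log2 scale against knockdown-labelled libraries 1 and 2 (adjusted p = 1.36e-05) and higher by 0.86 against library 3 (adjusted p = 0.008, with the spread of the other groups only). UAP1 and the amino acid transporter SLC38A2 likewise passed in both fits with opposite signs, at -0.31 and -0.26 against libraries 1 and 2 and at 0.44 and 0.56 against library 3. AZGP1, UAP1 and SLC38A2 were picked out here after their values were seen. With only the rescue and knockdown-labelled libraries in the edgeR fit, 0 of the 53 genes passed, against 0.0426% of all genes, with 18 at an unadjusted p under 0.05, against 22.6% of all genes, and a lowest adjusted p of 0.0546. With all 9 libraries DESeq2 called 12 of the 53, against 16.1% of all genes, and limma-voom 7, against 10.2%. Without scaling factors 11 genes were higher, against 7.9% of all genes, and 1 was lower, against 1.37%, and the median moved to 0.34, while that of all genes tested moved to 0.24.

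Rescue and control cells differ by design in both constructs. None of the 53 genes passed in edgeR with all 9 libraries in the fit, where 0.149% of all genes did, although 17 (32.1%) had an unadjusted p under 0.05, against 10.5% of all genes. DESeq2 called 7, against 1.94% of all genes, limma-voom called 0, against 0.0774%, and limma-voom with quality weights 19, against 9.47%. The log2 fold change was positive for 45 of the 53, with a median of 0.22, against -0.01 over all genes tested. Other lists also lay above control: the median was 0.54 over 8 glucocorticoid-induced genes, all positive, 0.44 over 10 hypoxia genes, all positive, and 0.32 over 10 kallikreins and luminal targets, of which 8 were positive. It was 0.15 over 36 other androgen response genes, with 25 positive, -0.09 over 7 androgen-repressed genes and 1.07 over the 4 stromal markers tested. Their part in the result was not tested. All 3 rescue libraries lay above the 3 controls for 20 of the 53, against 12.8% of all genes tested, and below them for 3, against 13.6% of all genes tested.

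The result changed when the knockdown-labelled libraries, which share their spread with the other groups in that fit, were left out. With only the rescue and control libraries, 16 of the 53 genes were higher in rescue and 1 was lower, together 32.1%, against 5.87% of all genes tested (3.92% higher and 1.95% lower). Without knockdown-labelled library 3 alone, 18 were higher, against 4.52% of all genes, and 1 was lower, against 2.86%. The 17 genes of the first fit are described next by role. Their log2 fold changes and adjusted p are those of edgeR on 6 libraries, and GUCY1A1 was the lower one. None of the 17 passed in edgeR with all 9 libraries, so higher and lower in the next paragraphs refer to the 6-library fit. That fit was not repeated with a library left out.

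Among transcription factors and cofactors, FKBP5, MAF, ZBTB10 and ELL2 were higher in rescue in the 6-library fit. ELL2, an elongation factor of RNA polymerase II, had 95.03, 100.3 and 98.7 CPM in rescue, 81.2, 78.0 and 73.6 CPM in knockdown-labelled and 47.6, 61.4 and 70.1 CPM in control libraries. The 3 groups did not overlap, with rescue highest and control lowest. Its log2 fold change of rescue over control was 0.72 (adjusted p = 0.00235), against an adjusted p of 0.0752 with all 9 libraries. ZBTB10 had 27.8, 36.6 and 35.2 CPM in rescue, 22.6, 28.9 and 25.8 CPM in knockdown-labelled and 20.7, 20.6 and 20.9 CPM in control libraries. Its controls were nearly equal and below the other 6 libraries, at a log2 fold change of 0.68 (adjusted p = 0.00754). MAF, with the values given above, stood at 1.06 (adjusted p = 0.00941) and FKBP5 at 0.43 (adjusted p = 0.0405).

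Among receptors and signalling genes, PMEPA1, MERTK and LIFR were higher in rescue and GUCY1A1 was lower. PMEPA1, a membrane adaptor that restrains TGF-beta signalling, had 358, 434 and 473 CPM in rescue, 361, 355 and 161 CPM in knockdown-labelled and 191, 199 and 259 CPM in control libraries. The rescue libraries were above the controls, as were knockdown-labelled libraries 1 and 2, whereas library 3 of that group was the lowest of all. The log2 fold change of rescue over control was 0.97 (adjusted p = 0.000405). LIFR, the receptor for leukemia inhibitory factor, had 65.4, 81.4 and 72.6 CPM in rescue, 57.5, 46.5 and 63.3 CPM in knockdown-labelled and 55.7, 52.7 and 60.7 CPM in control libraries. Its rescue libraries were above the other 6 by a small margin, at 0.38 over control (adjusted p = 0.039). MERTK stood at 0.66 (adjusted p = 0.0118) and GUCY1A1 at -0.61 (adjusted p = 0.0387).

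In the secretory pathway RAB3B, at 0.59 (adjusted p = 0.00539), and AZGP1, at 0.52 (adjusted p = 0.0395), were higher in rescue. AZGP1 had 91.2, 107 and 107 CPM in rescue and 63.1, 57.8 and 91.9 CPM in control libraries, and the lowest rescue library lay just under control library 3. Among transporters, ANKH stood at 0.66 (adjusted p = 0.0114) and SLC38A2, a carrier of small neutral amino acids, at 0.47 (adjusted p = 0.00377). SLC38A2 had 384, 435 and 410 CPM in rescue, 478, 498 and 283 CPM in knockdown-labelled and 309, 288 and 296 CPM in control libraries. Rescue and control libraries of SLC38A2 did not overlap, and the knockdown-labelled libraries lay on either side of both.

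Among metabolic enzymes, ABHD2, NNMT and HPGD were higher in rescue. ABHD2 stood at 0.87 (adjusted p = 0.00077) and NNMT at 1.09 (adjusted p = 0.00173). HPGD had 35.3, 36.5 and 41.7 CPM in rescue, 42.5, 36.5 and 11.5 CPM in knockdown-labelled and 15.0, 12.9 and 23.6 CPM in control libraries. Its rescue libraries were above all 3 controls, and knockdown-labelled libraries 1 and 2 were as high as rescue, at a log2 fold change of rescue over control of 1.14 (adjusted p = 0.00214). PDLIM5 was higher at 0.44 (adjusted p = 0.0211), with 43.4, 47.5 and 42.9 CPM in rescue, 40.1, 33.8 and 37.9 CPM in knockdown-labelled and 32.8, 31.3 and 34.9 CPM in control libraries. NDRG1 was higher at 0.75 (adjusted p = 0.0435), with control library 3 inside the rescue range as described above. Of the genes with the smallest p in their role groups that did not pass in this fit, UBE2J1 had a log2 fold change of -0.19, LMAN1, a cargo receptor for export from the endoplasmic reticulum, 0.20, SLC26A2 0.29, MYL12A 0.20, ACTN1, an actin crosslinker, -0.09, APPBP2 0.09 and HERC3 0.20 with all 9 libraries, and none of these passed there either.

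Knockdown-labelled and control cells differ by design in the construct against UGT2B28, although over the group its mRNA was little changed (log2 fold change -0.04). UGT2B28 mRNA lay below all 3 controls in knockdown-labelled library 3, at 3.05 CPM (28 counts), but not in libraries 1 and 2, at 8.48 and 6.18 CPM. None of the 53 genes passed in edgeR, where 0.00595% of all genes did, and 13 (24.5%) had an unadjusted p under 0.05, against 19.1% of all genes. DESeq2 called 4, against 6.43% of all genes, limma-voom called 0, against 0.00595%, and limma-voom with quality weights 28, against 38.9%. The log2 fold change was positive for 37 of the 53, with a median of 0.13, against 0.02 over all genes tested. Without scaling factors 22 of the 53 were positive and the median was -0.08, with -0.21 over all genes tested. All 3 knockdown-labelled libraries lay above the 3 controls for 10 of the 53, against 11% of all genes tested, and below them for 2, RAB3B and the secreted metalloprotease gene ADAMTS1, against 10.2% of all genes tested.

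The smallest adjusted p among the 53 genes were those of VAPA, PLPP1 and ACSL3. VAPA stood at 0.66 (adjusted p = 0.0861) and PLPP1 at 0.57 (adjusted p = 0.0931), with the values given above and, for PLPP1, MTREX at 0.59 (adjusted p = 0.0781) on the other strand. ACSL3, which activates long-chain fatty acids, had 81.7, 76.3 and 77.7 CPM in rescue, 89.9, 85.7 and 81.8 CPM in knockdown-labelled and 52.8, 62.2 and 69.6 CPM in control libraries. The 3 groups of ACSL3 did not overlap, with knockdown-labelled highest and control lowest, and the log2 fold change was 0.48 (adjusted p = 0.0967). MYL12A had 493, 508 and 343 CPM in knockdown-labelled and 301, 303 and 300.1 CPM in control libraries, at 0.57 (adjusted p = 0.11). SPCS3, a subunit of the signal peptidase, had 117, 129 and 97.5 CPM in knockdown-labelled and 85.2, 78.6 and 93.5 CPM in control libraries, at 0.42 (adjusted p = 0.146). In both genes the knockdown-labelled libraries were above the controls, with library 3 nearest to them. AZGP1 stood at 1.11 (adjusted p = 0.159), the vesicle gene TPD52 at 0.55 (adjusted p = 0.189) and RAB3B at -0.52 (adjusted p = 0.165); TPD52 was named after its values were seen.

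By role, 10 of 11 metabolic enzymes had a positive log2 fold change over control, with a median of 0.37. So did 6 of 8 secretory genes, with a median of 0.27, and 2 of 6 cytoskeleton genes, with a median of -0.03. Over all 16796 genes tested 8638 were positive, with a median of 0.015. The median over the metabolic enzymes, set against the control mean, was 0.54 and 0.57 in knockdown-labelled libraries 1 and 2 and -0.12 in library 3, and that over the secretory genes was 0.28 and 0.42 in libraries 1 and 2 and 0.08 in library 3. ELL2 stood at 0.38, CENPN, a centromere protein, at 0.43, ZBTB10 at 0.31, the kinase SGK1 at 0.58, PMEPA1 at 0.43, the inhibitory G protein subunit GNAI3 at 0.20, SLC38A2 at 0.50, SLC26A2 at 0.15, ABCC4 at -0.26, DBI at 0.43, PDLIM5 at 0.17, ACTN1 at -0.09, NDRG1 at -0.44, APPBP2 at 0.09 and HERC3 at -0.22. None of these passed, and CENPN, SGK1, PMEPA1, SLC38A2, ABCC4, DBI and ACTN1, as well as AZGP1, had the opposite sign with knockdown-labelled library 3 alone. DBI had 233, 228 and 134 CPM in knockdown-labelled and 151, 147 and 144 CPM in control libraries, so that library 3 lay below all 3 controls while libraries 1 and 2 lay above them. SGK1 had 47.5, 46.3 and 21.9 CPM in knockdown-labelled and 22.1, 20.3 and 34.7 CPM in control libraries. Its libraries 1 and 2 lay above all 3 controls and library 3 within the control range.

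Without knockdown-labelled library 3, 19 of the 53 genes were higher than in control, where 18.1% of all genes were, and 7 were lower, against 14.8% of all genes. With library 3 alone, SPDEF passed as lower and no other did, where 2.34% of all genes were higher and 9.07% lower. SPDEF had 308, 283 and 146 CPM in knockdown-labelled and 294, 294 and 288 CPM in control libraries: libraries 1 and 2 overlapped the controls and library 3 had about a log2 unit less (-1.03, adjusted p = 9.00e-05, a value that cannot cover spread within the knockdown-labelled group). The 7 genes lower in libraries 1 and 2 were ELK4, CAMKK2, the phosphatase gene PTPN21, RAB3B, ADAMTS1, ABCC4 and ABHD2. ADAMTS1, the largest of these changes at -0.94 (adjusted p = 5.42e-05), had 153, 148 and 269 CPM in knockdown-labelled and 300, 272 and 298 CPM in control libraries. SPDEF, PTPN21, ADAMTS1 and ELK4 were picked out here after their values were seen.

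Setting each group against both others shows where the 53 genes separate fully. All 3 rescue libraries lay above the other 6 for 11 of the 53, FKBP5, MAF, ELL2, CAMKK2, MERTK, LIFR, RAB3B, ANKH, NNMT, ABHD2 and PDLIM5, which is 20.8%, against 6.35% of all genes tested. They lay below the other 6 for GUCY1A1, UBE2J1 and PLPP1, 5.66%, against 5.46% of all genes. All 3 knockdown-labelled libraries lay above the other 6 for GNAI3, VAPA, SPCS3, UBE2J1, PLPP1, ACSL3 and PGM3, 13.2%, against 7.36%, and below them for RAB3B, 1.89%, against 6.44%. All 3 controls lay below the other 6 for ZBTB10, ELL2, ACSL3 and MYL12A, 7.55%, against 1.83%, and above them for none, where 1.93% of all genes did. Among the 7 knockdown-labelled genes, GNAI3 had 66.2, 70.4 and 65.1 CPM in knockdown-labelled libraries, against 61.5, 60.7 and 61.1 CPM in rescue and 63.2, 51.6 and 61.0 CPM in control libraries. PGM3 had 292, 290 and 315 CPM in knockdown-labelled libraries, against 260, 254 and 274 CPM in rescue and 269, 264 and 274 CPM in control libraries. For both genes the knockdown-labelled libraries lay only a little above the other 6, the rescue and control libraries overlapped, and neither gene passed in any comparison.

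**Figure D4:**
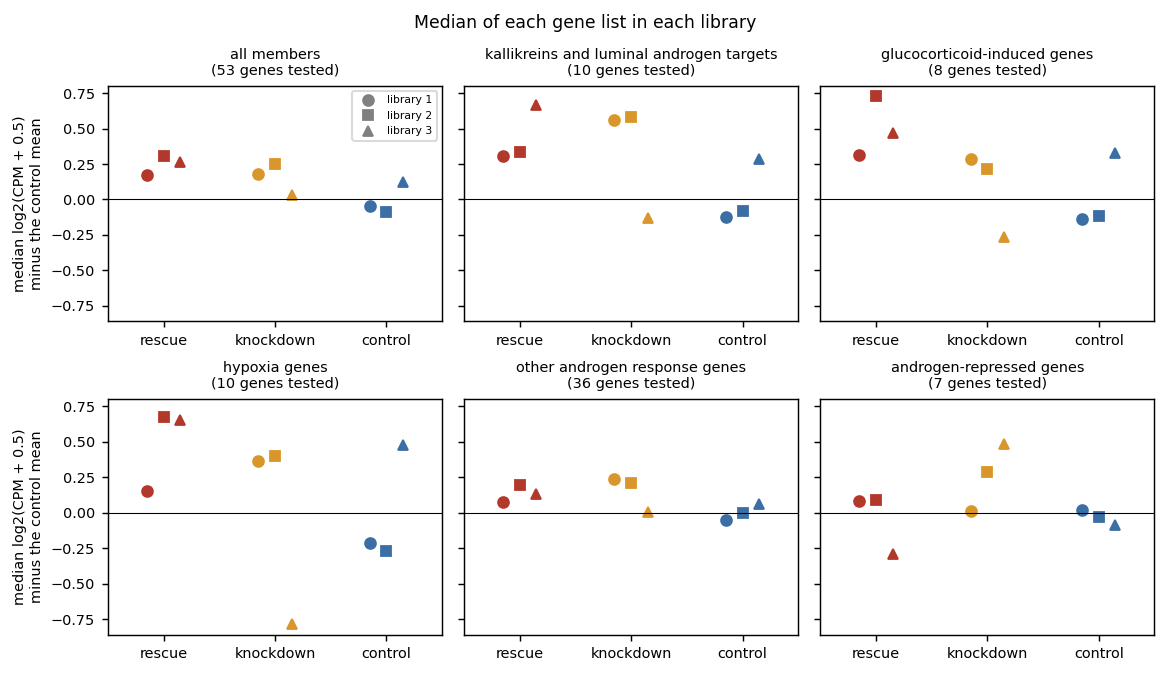
Median over the genes of 6 lists of log2(CPM + 0.5) minus the control mean, in each library, with a symbol for each library number and colours for rescue, knockdown-labelled and control libraries. The 3 rescue libraries lie above the 3 controls for the 53 genes, the kallikreins and luminal targets and the other androgen response genes. In 5 of the 6 panels, all but that of the androgen-repressed genes, knockdown-labelled library 3 lies below libraries 1 and 2.

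Taken library by library and set against the control mean, the 53 genes had a median log2 difference of 0.18, 0.31 and 0.26 in rescue, of 0.18, 0.25 and 0.04 in knockdown-labelled and of -0.04, -0.09 and 0.13 in control libraries. Control library 3 stood above the other 2 controls, and without it the median log2 fold change of rescue over control was 0.36.

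Among 10 kallikreins and luminal androgen targets, 1 rose in rescue over knockdown-labelled libraries, the serine protease gene TMPRSS2 at 0.64 (adjusted p = 0.0402), and 0 fell, with a median of -0.01. Among 36 other androgen response genes 3 rose, AKAP12 at 2.64, SRF at 0.83 and RRP12 at 0.48, and 1 fell, PA2G4 at -0.57, with a median of -0.03, against 0.09 over the 53 genes. Among 7 androgen-repressed genes 1 fell, CAMK2N1 at -1.32 (adjusted p = 0.00909), and 0 rose, with a median of -0.20. Among 8 glucocorticoid-induced genes 1 rose, ZBTB16, a zinc finger repressor, at 1.02 (edgeR adjusted p = 0.00909), and 7 of the 8 were positive, with a median of 0.40. In the order given, 10%, 11.1%, 14.3% and 12.5% of these lists passed. That is near the 9.83% of all genes tested (4.44% higher and 5.39% lower), whose median was -0.002. ZBTB16 had 131, 157 and 148 CPM in rescue, 71.1, 77.7 and 65.8 CPM in knockdown-labelled and 70.7, 65.7 and 98.3 CPM in control libraries, and the rescue libraries did not overlap with the rest. The glucocorticoid receptor mRNA NR3C1 stood at 0.582 to 2.29 CPM over the 9 libraries.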

How the data were processed

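RNA of 9 LAPC4 libraries was sequenced by the authors, who deposited HTSeq counts per gene, not normalized. FastQC, cutadapt, STAR, HTSeq and build hg38 are named in the submitters' processing notes. The sources used here do not give their versions, the gene annotation or the use of strand. Summary rows were kept out: reads in no feature came to 43.7% to 48.7% of all counts in a file, ambiguous reads to 2.36% to 3.14% and multiply mapped reads to 7.67% to 11.6%. Libraries were grouped by their labels. Genes passing filterByExpr (minimum count 10) were scaled by TMM and fitted with edgeR 4.0.16 (R 4.3.3) over all 9 libraries, with 6 residual degrees of freedom. The quasi-likelihood test gave p-values, adjusted by Benjamini-Hochberg over 16796 genes, for 3 pairwise comparisons with a threshold of 0.05. Standard errors and 95% intervals come from that fit and cover the spread between libraries. At these depths HERC3 and ALDH1A3 rest on few counts, so that small changes in them were not detectable.

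The 53 genes, their roles and all gene lists were chosen with earlier results of these data known. Named are genes that passed, up to 3 per role with the smallest p, and genes whose 3 rescue or knockdown-labelled libraries lay apart from the other 6. Results of 1 gene list are not reported here. Alternatives were DESeq2 1.42.0 (size factors, Wald test), limma 3.58.1 (voom, with and without quality weights), no scaling, no filter, a filter of 1 CPM in 3 libraries, only the groups compared, a replicate block, a threshold of 0.01, each library left out, and knockdown-labelled libraries 1 and 2 left out. The fits were tested on simulated data. Exon lengths and overlaps come from GENCODE 29 on GRCh38, matching 56936 of 60325 rows. Promoters are from RefSeq on GRCh38.p14.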

Additional observations from a re-analysis of the deposited data

How the results depend on the processing

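Counts of the 53 genes that passed moved with the filter, the test and the libraries in the fit, and so did the share of all genes that passed, given after each count. Between rescue and knockdown-labelled libraries 8 passed (9.83%), against 1 at an adjusted p under 0.01 (0.965%), 14 with no filter (7.52%), 29 in limma-voom with quality weights (41.7%), 0 with only these groups (0.0426%), 17 with knockdown-labelled library 3 alone (19.5%), and 1 to 27 when 1 library was left out (0.776% to 39%). Between rescue and control 0 passed (0.149%), against 9 with no filter (1.14%), 7 in DESeq2 (1.94%), 19 with quality weights (9.47%), 17 with only these groups (5.87%), 17 with knockdown-labelled library 3 alone (5.27%), and 0 to 19 when 1 library was left out (0.00576% to 7.38%). Between knockdown-labelled and control 0 passed (0.00595%), against 7 with no filter (2.98%), 4 in DESeq2 (6.43%), 28 with quality weights (38.9%), 1 with knockdown-labelled library 3 alone (11.4%), and 0 to 26 when 1 library was left out (0% to 32.9%). Without scaling factors the median was 0.34 for rescue over knockdown-labelled and -0.076 for knockdown-labelled over control libraries, and with knockdown-labelled library 3 alone it was 0.23 and -0.054. Leaving out 1 library gave medians of 0.15 to 0.36 for rescue over control, 0.02 to 0.15 for rescue over knockdown-labelled and 0.12 to 0.23 for knockdown-labelled over control libraries.

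Some genes that had not passed changed sign. Knockdown-labelled library 3 alone over control gave -0.14 for CENPN, -0.26 for SGK1, -0.46 for PMEPA1, -0.35 for AZGP1, -0.10 for SLC38A2, -0.17 for DBI, 0.0004 for ABCC4 and 0.045 for ACTN1. Without scaling factors that comparison gave -0.030 for GNAI3, -0.076 for SLC26A2, -0.048 for PDLIM5 and -0.13 for APPBP2, and quality weights gave 0.11 for HERC3. Leaving out 1 library gave -0.052 to 0.51 for SLC26A2 and -0.47 to 0.36 for HERC3. For rescue over knockdown-labelled libraries MYL12A stood at 0.032 with knockdown-labelled library 3 alone. APPBP2 stood at 0.0041 with DESeq2 size factors, 0.25 without scaling factors, 0.0038 with no filter, 0.0083 with the 1 CPM filter, 0.0031 in DESeq2, 0.0001 with only these groups, 0.077 with knockdown-labelled library 3 alone and -0.034 to 0.052 when 1 library was left out. For rescue over control, HERC3 ran from -0.12 to 0.78 when 1 library was left out. Of the other values of named genes over all settings, 314 between rescue and knockdown-labelled libraries kept their direction and their side of the threshold, 68 lost a call and 27 gained one. Those between rescue and control gave 346 kept and 72 gained, and those between knockdown-labelled and control 370 kept and 35 gained. The cause of these changes was not tested.

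Same-numbered libraries did not deviate together from their group means (correlations of -0.355 to 0.0784). With 3 libraries a group and knockdown-labelled library 3 standing apart, these values cannot tell whether the numbers pair the libraries. With the replicate number as a block, 3 genes passed between rescue and knockdown-labelled libraries, RAB3B, ABHD2 and PLPP1, where 2.63% of all genes did.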
